A study of Mus musculus with 6 samples.

Results

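The regions described are the narrow autosomal regions that carry no gene name in a table of captured, methylated DNA from mouse heart ventricle. A region was taken when the table gives it no gene, it lies on chromosomes 1 to 19 and it spans 2000 bp or less. That rule found 39465 regions among 213957 distinct regions. The regions they are set against are the 63095 gene-named autosomal regions of the same widths. The study compared male C57BL/6 mice at postnatal day 14 (P14) with male C57BL/6 mice at postnatal day 1 (P1), with no treatment at either age. Each age had 3 libraries, called biological replicates, and the sources used here do not say whether a library held 1 animal or a pool. The tissue is labelled left ventricle, while the dissection notes describe ventricles with the septum left in and the atria removed. Methylated fragments were pulled down with a methyl-CpG binding protein domain, an assay called MBD-seq, and then sequenced. The table holds no expression values, so the tissue label was not checked against marker genes.

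In mammals DNA methylation sits mostly on the cytosine of CpG pairs, and most CpGs outside CpG islands carry it. It keeps repeats and many cell-type-specific elements silent, and distal regulatory elements between genes often lose it in the cells that use them. A methyl-CpG binding domain holds fragments more strongly the more methylated CpGs they carry, so read density follows both CpG number and methylation and is not a methylation level. In whole ventricle, a change within cells and a change in the mix of cell types cannot be told apart.

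The libraries held 21512072, 20027789 and 16284216 reads at P14 and 18505983, 17532547 and 18101856 reads at P1. They differed in how strongly reads gathered in peaks. Peaks of any width took 31.0%, 17.5% and 15.5% of reads at P14, against 10.4%, 12.0% and 11.4% at P1. The library P14 replicate 1 stood apart, so the main densities and shares are given for each library. It is among the 3 P14 libraries in the means by width, place and promoter, which are given with their SD. Every region in the table has at least 60 reads over the 6 libraries, a mean of 10 per library, so a narrow region had to be dense to be listed. Coordinates are those of GRCm38 (mm10), counted from 1.

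A small share of the unnamed regions held a whole promoter. Unnamed peaks held a complete RefSeq promoter window (250 bases before to 50 after a gene start) in 254 cases, or 0.807% of them, and 19 of the 290 windows held belonged to protein-coding genes. Unnamed gaps held one in 112 cases (1.40%), and 56 of their 134 windows belonged to protein-coding genes. The 4 protein-coding windows in unnamed peaks with the most CpG pairs are printed because CpG pairs are what the capture reads. They are from RefSeq, GRCm38.p6, each 5′ to 3′ on the strand of its gene, with CG pairs in capitals. Zfp996 codes for a zinc finger protein (chr12:18387241-18387540, plus strand). Rnf212 codes for a factor of meiotic crossing-over (chr5:108774978-108775277, minus strand), and Rnf212b for its relative (chr14:54813900-54814199, plus strand). Ankrd31 codes for a protein needed for normal placing of meiotic DNA breaks (chr13:96748043-96748342, plus strand).
Zfp996: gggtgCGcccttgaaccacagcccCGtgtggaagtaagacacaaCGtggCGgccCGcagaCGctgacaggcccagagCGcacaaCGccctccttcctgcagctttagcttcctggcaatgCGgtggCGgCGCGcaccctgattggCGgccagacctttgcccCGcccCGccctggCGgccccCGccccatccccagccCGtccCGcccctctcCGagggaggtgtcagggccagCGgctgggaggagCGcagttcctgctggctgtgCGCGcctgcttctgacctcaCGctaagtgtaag
Rnf212: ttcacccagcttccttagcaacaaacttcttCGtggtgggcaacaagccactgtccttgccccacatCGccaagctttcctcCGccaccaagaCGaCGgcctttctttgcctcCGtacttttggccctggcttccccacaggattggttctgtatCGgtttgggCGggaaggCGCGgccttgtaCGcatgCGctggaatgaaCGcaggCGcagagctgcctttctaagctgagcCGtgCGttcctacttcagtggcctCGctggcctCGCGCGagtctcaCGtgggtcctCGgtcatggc
Rnf212b: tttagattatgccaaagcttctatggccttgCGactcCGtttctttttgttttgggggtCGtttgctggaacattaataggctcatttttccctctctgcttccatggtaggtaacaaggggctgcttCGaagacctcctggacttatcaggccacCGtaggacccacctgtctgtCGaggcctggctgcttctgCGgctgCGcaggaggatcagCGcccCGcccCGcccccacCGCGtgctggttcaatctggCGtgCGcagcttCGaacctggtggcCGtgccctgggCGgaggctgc
Ankrd31: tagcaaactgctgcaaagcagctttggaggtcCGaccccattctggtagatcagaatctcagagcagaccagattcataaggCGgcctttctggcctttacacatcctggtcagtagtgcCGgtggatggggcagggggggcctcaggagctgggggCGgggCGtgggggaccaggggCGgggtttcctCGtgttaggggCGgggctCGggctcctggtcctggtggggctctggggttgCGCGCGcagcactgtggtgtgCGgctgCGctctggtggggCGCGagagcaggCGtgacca

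These windows hold 25 CG pairs for Zfp996, 22 for Rnf212, 18 for Rnf212b and 17 for Ankrd31. They are not typical, since the median over the 254 promoter-holding unnamed peaks was 7 CG pairs. The unnamed peak over the Rnf212 promoter had 161, 73 and 42 reads at P14, against 44, 26 and 22 reads at P1. The peak over the Rnf212b promoter had 142, 43 and 34 reads at P14, against 27, 33 and 35 reads at P1. Raw reads overlapped between the ages at Rnf212b and, narrowly, at Rnf212, and P14 replicate 1 was the highest library at both. The Ankrd31 promoter peak had 161, 48 and 37 reads at P14, against 42, 36 and 30 reads at P1. The Zfp996 promoter peak had 62, 29 and 32 reads at P14, against 5, 17 and 14 reads at P1, with no overlap in raw reads. In counts per 1e6 reads in peaks (CPM) the ages overlapped at all 4, Zfp996 included. None of the 4 passed the test over peaks described further on (edgeR's quasi-likelihood test with Benjamini-Hochberg adjustment), with adjusted p from 0.854 to 1. Read density, the capture per length, averaged 1.71 ± 0.524 reads per kb per 1e6 reads at P14 and 0.864 ± 0.0769 at P1 over the medians of all 254 promoter-holding unnamed peaks (SD, n = 3 libraries each). In the CpG-richest window of each such peak, 26.8% held at least 10 CG pairs, against 34.2% for the 852 gene-named regions that hold a promoter and 43.5% of all 31396 autosomal promoter windows.

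The unnamed narrow regions were of 2 kinds. The table tiles the chromosomes in runs of abutting regions in which short dense regions alternate with stretches between them. In 52044 runs, gene names never stood at both alternating positions, so that a named region fixes which positions are peaks. Read this way, 31485 members were peaks and 7980 were gaps between peaks. The kind of 21023 members was settled by a named region in the same run, and that of the other 18442 by read density and width. On the settled unnamed autosomal regions of any width, density and width, summed over the run, gave the same kind for 99.98%. The weights were fitted on these same regions, so this is not an independent check. Density alone, taken region by region, gave the same kind for 90.93% of them. Runs without a named region could not be checked in this way, and 738 members stood in a run of 1 region. Peaks spanned a median of 789 bp and gaps a median of 1502 bp, against 849 bp for gene-named regions, all of which were read as peaks. Since density helped to tell the kinds apart, a lower density in gaps than in peaks is a description. The histograms of density show these kinds apart at P14 and closer at P1.

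**Figure D1:**
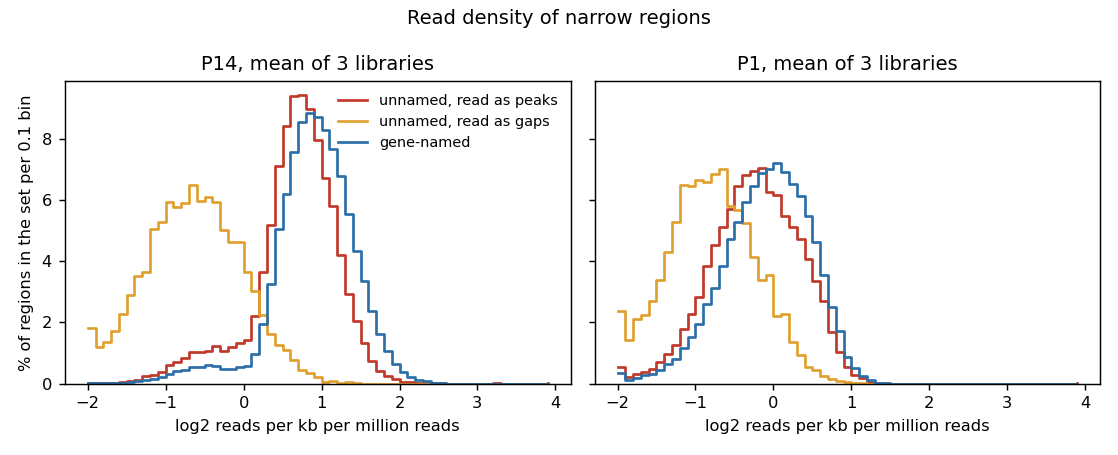
Distribution of read density (log2 reads per kb per 1e6 reads, mean of the 3 libraries of an age) over unnamed peaks, unnamed gaps and gene-named regions of 2000 bp or less, as percent of each set per bin, P14 left and P1 right. Regions beyond either end are counted in the end bins. At P14 the gaps lie to the left of both peak sets, and at P1 the 3 curves overlap more.

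Unnamed peaks had a median density of 2.22, 1.38 and 1.26 reads per kb per 1e6 reads in the P14 libraries, against 0.734, 0.921 and 0.902 in the P1 libraries. The ages did not overlap, and the mean was 1.62 ± 0.519 at P14 and 0.852 ± 0.103 at P1 (SD, n = 3 each). Gene-named regions of the same widths had 2.72, 1.56 and 1.37 at P14, against 0.838, 1.03 and 0.986 at P1. In both sets every P14 library was above every P1 library, and P14 replicate 1 was the highest. Unnamed gaps had 0.717, 0.595 and 0.573 at P14, against 0.552, 0.564 and 0.579 at P1, so the ages overlapped. The gaps wider than 2000 bp had 0.409 ± 0.015 at P14 and 0.422 ± 0.00943 at P1.

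**Figure D2:**
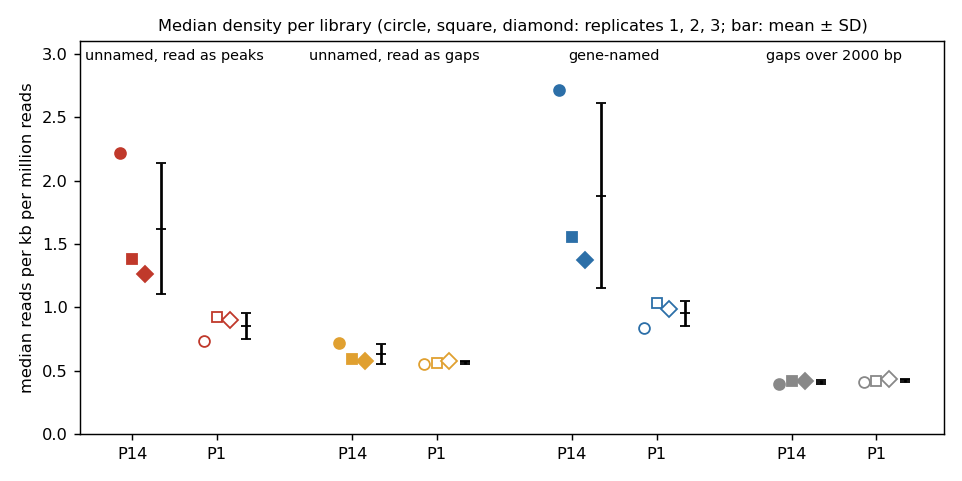
Median read density (reads per kb per 1e6 reads) in each library for 4 sets of regions, with P14 filled and left of P1 (open) in each pair. Black bars are the mean ± SD of 3 libraries. Unnamed and gene-named peaks are higher in all 3 P14 libraries than in any P1 library, while the gaps differ little.

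Taken over all places, the median density of unnamed peaks was below that of gene-named regions in every library. The sets differed in place, and outside gene spans this order did not hold throughout, as given by place further on. The log2 ratio of the median densities, unnamed peaks over gene-named regions, was −0.29, −0.17 and −0.12 at P14 and −0.19, −0.16 and −0.13 at P1. Over the 6 libraries the mean was −0.18 (0.884-fold), with a negative ratio in 6 of 6 libraries. An exact sign-flip permutation test, two-sided, gave p = 0.03125, the smallest that 6 libraries allow. The ratio depends on the summary, since total reads over total length gave −0.09, negative in 5 of 6 libraries, p = 0.0625 in the same exact permutation test. Total reads give more weight than medians to the few peaks of extreme density described further on. Their part in this value was not tested. With the gaps kept in, the ratio for all 39465 members was −0.32 (0.801-fold), again negative in 6 of 6 libraries.

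For peaks, no difference of this ratio between the ages was detectable. It averaged −0.19 ± 0.09 at P14 and −0.16 ± 0.03 at P1, a difference of −0.03 (exact permutation test, two-sided, p = 0.8, where 3 libraries against 3 allow no p below 0.1). Without P14 replicate 1 the difference was 0.02, on the other side of 0. For all members, gaps included, the ratio was −0.37 ± 0.10 at P14 and −0.28 ± 0.02 at P1, a difference of −0.09 (exact permutation test, two-sided, p = 0.3), and −0.034 without P14 replicate 1. Taken within width classes it was −0.17, and by total reads over total length −0.25. In both of these every P14 library lay below every P1 library (exact permutation test, two-sided, p = 0.1, the smallest possible). The value by total reads holds the few extreme peaks too, and their part in it was not tested.

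The share of all reads that fell in the unnamed narrow regions was 7.42%, 4.91% and 4.64% at P14, against 3.30%, 3.68% and 3.61% at P1. The ages did not overlap, and the means of 5.66% ± 1.53 at P14 and 3.53% ± 0.204 at P1 differed by 2.13 percentage points (SD, n = 3 each; exact permutation test, two-sided, p = 0.1). Without P14 replicate 1 the difference was 1.24 points. Unnamed peaks carried most of it, with 4.87% ± 1.42 of reads at P14 and 2.83% ± 0.203 at P1. Unnamed gaps took 0.791% ± 0.117 of reads at P14 and 0.702% ± 0.00704 at P1, a difference of 0.0889 points (exact permutation test, two-sided, p = 0.2). Gene-named regions of the same widths took 18.1%, 9.90% and 8.62% of reads at P14, against 5.71%, 6.66% and 6.30% at P1. A higher share at P14 was thus not particular to the unnamed regions. Unnamed peaks without a read numbered 56, 1 and 2 in the P14 libraries, against 928, 8 and 16 in the P1 libraries, where replicate 1 stood out. The part of peak enrichment in these libraries in the higher share at P14 was not tested.

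Above 500 bp, density changed with width in opposite directions in peaks and gaps. Unnamed peaks 500 to 750 bp wide had a median density of 1.53 ± 0.494 at P14 and 0.797 ± 0.108 at P1 (SD, n = 3 libraries each). Those 1750 to 2000 bp wide had 1.76 ± 0.529 at P14 and 0.986 ± 0.0971 at P1. Gene-named regions ran from 1.67 ± 0.622 to 2.17 ± 0.927 at P14 over the same classes, and from 0.841 ± 0.106 to 1.13 ± 0.0809 at P1. Gaps ran the other way, from 0.964 ± 0.152 to 0.539 ± 0.0384 at P14 and from 0.929 ± 0.0123 to 0.501 ± 0.0192 at P1. Unnamed peaks 250 to 500 bp wide were denser than those of 500 to 750 bp, with 1.82 ± 0.648 at P14 and 0.978 ± 0.0840 at P1. The floor of 60 reads bears on the narrowest peaks and gaps, where only dense ones could be listed. At the width limit itself, the members just inside were gaps on chromosomes 10 and 14 and a peak on chromosome 11, with mean densities of 0.450, 0.335 and 1.45. Just outside, at 2001 bp, lay gaps on chromosomes 11, 14 and 19, with 0.797, 0.345 and 0.826.

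**Figure D3:**
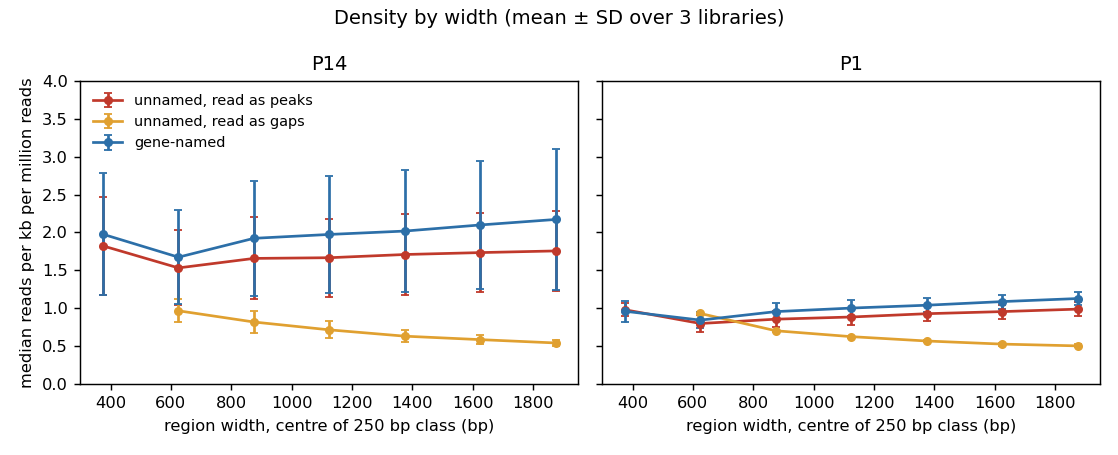
Median read density (reads per kb per 1e6 reads, mean ± SD over 3 libraries) by width in classes of 250 bp, P14 left and P1 right. Classes with fewer than 20 regions are left out. Density grows with width in gene-named regions and unnamed peaks above 500 bp and falls with width in unnamed gaps.

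Most unnamed peaks lay outside annotated genes. Of the 31485, 7914 (25.1%) overlapped a RefSeq gene span, 5852 (18.6%) lay within 5 kb of one, 14550 (46.2%) lay 5 to 50 kb away and 3169 (10.1%) farther than 50 kb. Among gene-named regions, 60504 (95.9%) overlapped a span. The 23571 unnamed peaks outside spans had a median distance of 12704 bp to the nearest gene, with quartiles of 5032.5 and 29963.5 bp and a largest distance of 618982 bp. The spans that unnamed peaks did overlap were mostly non-coding, with 4815 (60.8%) in long non-coding RNA genes, 776 (9.81%) in pseudogenes and 2202 (27.8%) in protein-coding genes. How the table assigned gene names is not given in the sources used here. Protein-coding spans with many unnamed peaks included Mical3, a flavoprotein that oxidises actin, with 35, and Fryl with 34. Pde4d, a cAMP phosphodiesterase, had 33, and Cacna1c, the pore subunit of the cardiac L-type calcium channel, had 28.

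Density varied less by place than by age. Unnamed peaks in gene spans had a median density of 1.67 ± 0.549 at P14 and 0.867 ± 0.0991 at P1, and those beyond 50 kb had 1.42 ± 0.408 at P14 and 0.833 ± 0.0872 at P1 (SD, n = 3 libraries each). Gene-named regions in spans had 1.89 ± 0.739 at P14 and 0.957 ± 0.101 at P1. Within 5 kb, unnamed peaks had 1.66 ± 0.560 at P14 and 0.860 ± 0.111 at P1. The 1714 gene-named regions there had 1.64 ± 0.549 and 0.848 ± 0.113. At 5 to 50 kb, unnamed peaks had 1.62 ± 0.508 at P14 and 0.846 ± 0.107 at P1. The 794 gene-named regions there had 1.69 ± 0.564 and 0.844 ± 0.107. Beyond 50 kb, the 83 gene-named regions had 1.55 ± 0.500 at P14 and 0.816 ± 0.0775 at P1. The unnamed share of narrow peaks ran from 23.5% on chromosome 11 to 47.8% on chromosome 13. Unnamed peaks numbered 10.4 per Mb on chromosome 14, the lowest, and 16.0 per Mb on chromosome 13, the highest.

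Unnamed peaks were spread unevenly along the chromosomes. The median of 2334 windows of 1 Mb held 9, while the fullest window, chr4:153000001-154000000, held 108 beside 34 gene-named regions. Of these 108, 14 overlapped a gene span, 18 lay within 5 kb, 40 lay 5 to 50 kb away and 36 farther. Their density was 1.73 ± 0.621 at P14 and 0.883 ± 0.135 at P1, near that of all unnamed peaks. The next windows were chr12:112000001-113000000 with 100 and chr9:61000001-62000000 with 96.

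The unnamed gaps, unlike the unnamed peaks, mostly lay in gene spans. Of 7980, 6621 (83.0%) overlapped a gene span, and 6156 of those (93.0%) a protein-coding one. Both flanking peaks were in the table for 7187, and 5558 of these (77.3%) had flanks named for the same gene. Neither flank had a name for 1242 (17.3%). Gene names in the table stand on peaks alone, so a gap has none wherever it lies.

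Relative to their flanks, the gaps were less dense in every P14 library than in any P1 library. The median gap density over the median flank density was 0.247, 0.372 and 0.405 at P14, against 0.630, 0.530 and 0.572 at P1. The ages did not overlap, and the difference of the means was −0.236 (exact permutation test, two-sided, p = 0.1, the smallest that 3 against 3 allow), and −0.189 without P14 replicate 1. Gaps below both flanks made up 97.1%, 93.0% and 90.7% at P14, against 53.0%, 74.6% and 70.4% at P1. The gap densities themselves differed little, at 0.744, 0.610 and 0.583 at P14 and 0.559, 0.574 and 0.589 at P1, while the flanks had 3.01, 1.64 and 1.44 at P14 and 0.888, 1.08 and 1.03 at P1.

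**Figure D4:**
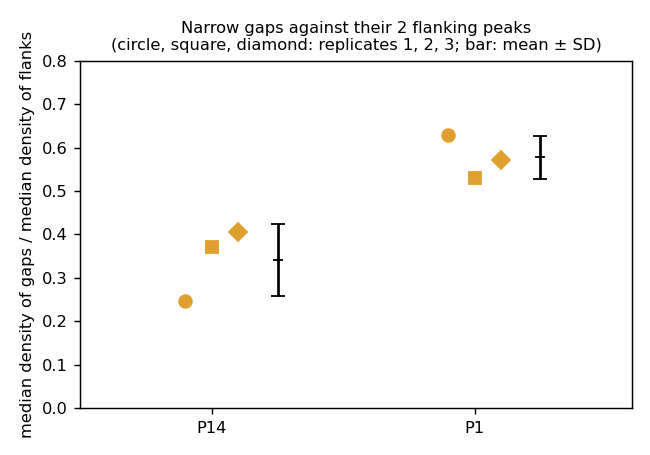
Ratio of the median density of unnamed narrow gaps to that of their flanking peaks in each library, with P14 left of P1. Black bars are the mean ± SD of 3 libraries. All P14 libraries, from 0.247 to 0.405, lie below all P1 libraries, from 0.530 to 0.630.

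One such gap holds a heart muscle microRNA. Mir499 lies in an intron of Myh7b, a slow myosin heavy chain gene, and its mature product is enriched in heart muscle. Its hairpin fell in a gap of 1224 bp, chr2:155621830-155623053, between peaks named for Myh7b. A flanking peak carries the name Mir499 as well. The mature sequence (RefSeq, GRCm38.p6, chr2:155622893-155622913, plus strand, 5′ to 3′) is shown with its seed, bases 2 to 8, in capitals.
mmu-miR-499-5p: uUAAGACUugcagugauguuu

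The Mir499 gap had 40, 22 and 12 reads at P14, against 13, 19 and 21 reads at P1. The ages overlapped, and the log2 change over all regions was 0.09 (SE 0.41, adjusted p = 0.884, edgeR's quasi-likelihood test with Benjamini-Hochberg adjustment). In all, 13 members held a complete microRNA hairpin, 9 of them gaps and 4 peaks, and none of the 13 passed that test. Among the 4 peaks, Mir6961 had 56, 11 and 12 reads at P14, against 6, 12 and 4 reads at P1. Mir6363 had 7, 10 and 6 reads at P14, against 28, 12 and 14 reads at P1. Raw reads overlapped at Mir6961 and did not at Mir6363, where all P14 libraries were below all P1 libraries.

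Differences at single regions were first tested over the whole table with edgeR's quasi-likelihood test and Benjamini-Hochberg adjustment at 0.05. The filter on low counts kept 37293 of the 39465 members, 29620 of them peaks and 7673 gaps. No region of any kind passed, 0.0% of 209063, and so none of the members. DESeq2 called 0 members higher and 1 lower, and limma-voom 0. At an unadjusted p under 0.05, 6041 members (16.2%) were higher and 1571 (4.21%) lower at P14, beside 12.7% higher and 10.3% lower among all regions. Gene-named regions had 28.1% higher and 3.17% lower. The median log2 change was 0.70 for unnamed peaks, 0.74 for gene-named regions and −0.06 for unnamed gaps. All P14 libraries lay above all P1 libraries in 36.6% of unnamed peaks and below them in 4.13%, beside 18.6% and 18.8% of all regions. Gene-named regions had 38.1% above and 2.96% below, so the pattern was not particular to unnamed peaks. Without P14 replicate 1 the adjusted test called 24 of 37293 members higher and 8 lower, beside 353 higher and 2988 lower of all 209063 regions.

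A second fit of the same form ran over the peaks alone, so that each library was scaled to its reads in peaks. In it a peak is higher or lower at P14 relative to the other peaks. Of 29620 unnamed peaks, 8 were higher and 902 lower at P14. Among all 96787 peaks tested, 0.108% were higher and 2.36% lower, 2.46% together, and 1365 of 60567 gene-named regions (2.25%) were lower. The median log2 change of unnamed peaks was 0.00. At an unadjusted p under 0.05, 368 were higher and 1943 lower, beside 2.56% higher and 5.07% lower among all peaks. All P14 libraries lay above all P1 libraries in 1216 unnamed peaks (4.11%) and below them in 2222 (7.50%), beside 5.11% and 6.64% of all peaks. The number of calls depended on which libraries were in the fit. Without P14 replicate 1 none was called in either direction, without P1 replicate 1, 2 or 3 there were 125, 255 and 399 lower calls, and without P14 replicate 2 or 3 there were 368 and 498. Each of these fits called at most 2 higher. All 902 kept a negative log2 change in each of these fits, with a median from −2.34 to −1.74, against −2.14 with all libraries. They were chosen as lower in these same libraries, so the kept sign is not an independent check. Scaled to the reads between peaks, 1287 of 29620 unnamed peaks were higher and 19 lower, beside 6475 higher and 47 lower of all 96787 peaks and 4810 higher of 60567 gene-named regions, a scaling that moves the median by 1.16 on the log2 scale.

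The 902 peaks lower at P14 had a median of 9.0 reads per library at P14 and 20.2 at P1, against 26.7 at P14 and 12.7 at P1 for unnamed peaks not called. They had a median width of 723 bp and a median log2 change of −2.14. Their median density was 0.555, 0.702 and 0.664 reads per kb per 1e6 reads at P14, against 1.98, 1.30 and 1.27 at P1. The ages were apart, which the choice of peaks lower at P14 favours, and P1 replicate 1 was the highest. That library was the highest of the P1 libraries in 84.8% of the 902, against 36.1% of the unnamed peaks not called, and its part in the calls was not tested beyond the fits above. By place, 200 of 7483 tested in gene spans were lower (2.67%), 138 of 5529 within 5 kb (2.50%), 384 of 13695 at 5 to 50 kb (2.80%) and 180 of 2913 beyond 50 kb (6.18%).

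Among the peaks with non-overlapping libraries, the 6 with the smallest p among those lower at P14 all lay outside gene spans. A peak at chr11:112089708-112091054, 66310 bp from the long non-coding RNA gene Gm39461, had 30, 19 and 15 reads at P14, against 43, 38 and 37 reads at P1. Its CPM over reads in peaks was 5.27 ± 0.641 at P14 and 20.2 ± 3.32 at P1 (SD, n = 3 each), a log2 change of −1.96 (SE 0.30, adjusted p = 0.0254, edgeR's quasi-likelihood test). Its 3 P14 libraries lay close together, and so did its P1 libraries. At chr4:70032039-70032818, 14288 bp from the pseudogene Gm11225, there were 3, 5 and 3 reads at P14, against 24, 19 and 20 reads at P1, with a log2 change of −3.50 (SE 0.54). At chr3:99571512-99572282, 68896 bp from the pseudogene M6pr-ps, 1, 3 and 4 reads at P14 stood against 30, 18 and 16 reads at P1, with a log2 change of −3.94 (SE 0.63). A peak 349 bp outside Erich3, chr3:154768139-154769229, had 11, 13 and 4 reads at P14, against 39, 18 and 32 reads at P1. The P14 reads at the last 3 peaks are few, and a single library there rests on 1 to 13 reads. A peak 31986 bp from Daam1, a formin that builds actin filaments, lay at chr12:71797653-71798964 and had 14, 15 and 15 reads at P14, against 32, 33 and 36 reads at P1. The last of these, at chr2:113874511-113875338, had 3, 7 and 6 reads at P14, against 46, 17 and 20 reads at P1. All 6 had an adjusted p of 0.0254, and without P14 replicate 1 each had 0.21 with the same sign.

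The 6 with the smallest p among peaks higher at P14 had pseudogenes or non-coding RNA genes as their nearest genes, at distances of 0 to 122546 bp. At chr2:167768036-167768847, 261 bp from the long non-coding RNA gene Gm32287, there were 40, 19 and 14 reads at P14, against 2 reads in each P1 library. Its CPM was 5.65 ± 0.415 at P14 and 1.02 ± 0.0825 at P1, a log2 change of 2.43 (SE 0.59, adjusted p = 0.0366, edgeR's quasi-likelihood test). The peak at chr13:50490454-50491270, in the pseudogene Gm7259, had 98, 25 and 25 reads at P14, against 5, 9 and 5 reads at P1, with a log2 change of 1.74 (SE 0.43). The peak at chr7:12206054-12206611 lay 3624 bp from Vmn1r-ps64, a pseudogene of the vomeronasal receptor family. It had 69, 23 and 14 reads at P14, against 0, 4 and 4 reads at P1. The peak at chr12:113396683-113397760 in the pseudogene Gm5190 had 71, 30 and 26 reads at P14, against 2, 9 and 6 reads at P1. The remaining pair lay farther out, chr13:7632777-7633474 at 122546 bp from the long non-coding RNA gene Gm36136 and chr9:92516916-92517697 at 9881 bp from the small nucleolar RNA gene Gm25417, with log2 changes of 1.58 and 1.68. In raw reads P14 replicate 1 was the highest library at each. In CPM over reads in peaks the other P14 libraries also lay above every P1 library, which the choice of peaks required. Pseudogenes resemble other loci, so the share of reads placed from a related copy was not tested. Without P14 replicate 1 their adjusted p ran from 0.258 to 0.401.

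**Figure D5:**
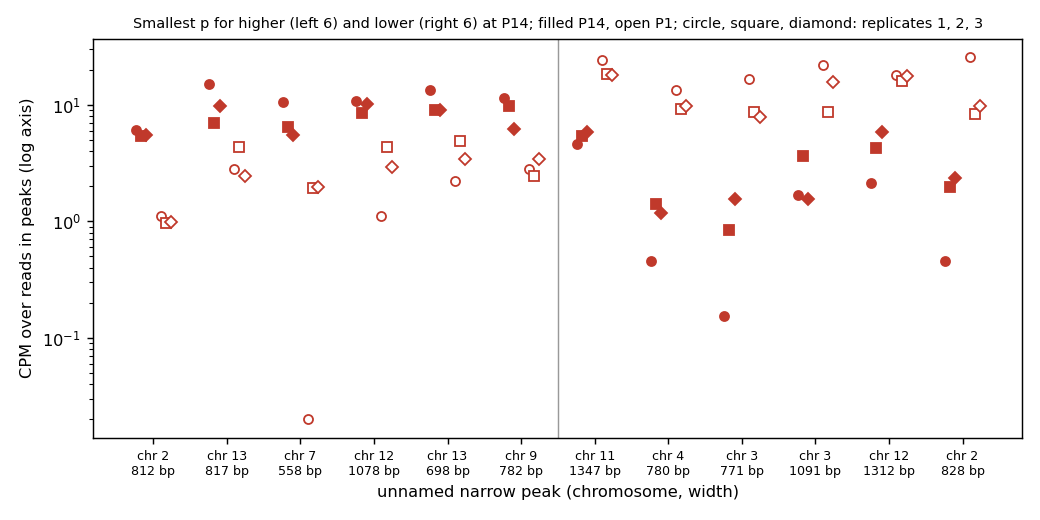
CPM over reads in peaks (log axis) in each library for the unnamed peaks of smallest p, 6 higher and 6 lower at P14, labelled by chromosome and width. P14 libraries are filled and to the left of the open P1 libraries, and the P1 library without a read is drawn at the lowest point of the axis. P14 and P1 libraries do not overlap at any of the 12 peaks, which the choice of peaks required.

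A handful of unnamed peaks held extreme numbers of reads. Of all members, 12 exceeded 5 times the median density of unnamed peaks, 5 exceeded 10 times it and 2 exceeded 100 times it. Those 12 took 0.0608%, 0.197% and 0.323% of all reads at P14, against 0.257%, 0.289% and 0.267% at P1. The densest, chr9:35304804-35305839 in the long non-coding RNA gene Gm33838, had 9227, 32684 and 45523 reads at P14, against 40517, 42697 and 41648 reads at P1. P14 replicate 1 was the lowest library there, the reverse of its place in most unnamed peaks. P14 replicate 1 was also the lowest library at chr9:24541603-24542489, 14558 bp from Dpy19l2, with 687, 3311 and 3419 reads at P14 and 3918, 4360 and 3596 reads at P1. At chr2:98664572-98665512, 292, 1278 and 1544 reads at P14 stood against 1554, 1808 and 1585 reads at P1. P14 replicate 1 was again far below the other libraries. The next peak, chr12:3109524-3110483, had 138, 429 and 657 reads at P14, against 548, 609 and 567 reads at P1. The last, chr11:109011282-109012687 in Gm36876, differed in having 1506, 664 and 423 reads at P14, against 297, 236 and 130 reads at P1, with P14 replicate 1 the highest. Its log2 change over peaks was 0.76 (SE 0.28, adjusted p = 0.264, edgeR's quasi-likelihood test), and none of the 5 passed. The call depended on the tool, since all 5 passed under limma-voom (adjusted p from 0.0069 to 0.0146), where the log2 changes of the first 4 ran from −2.32 to −2.04 in place of −1.36 to −1.16. DESeq2 called none of the 5. The peak on chromosome 12 also passed without P14 replicate 3 (edgeR, adjusted p = 0.0425), and that in Gm36876 without both replicates 1 (edgeR, adjusted p = 0.0361). The repeat content of these places was not tested.

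The other 3 named members were the next densest inside gene spans. In Gm52725, chr4:28176493-28177389 had 59, 111 and 124 reads at P14, against 161, 140 and 129 reads at P1, with a log2 change of −1.38 (SE 0.38) (edgeR's quasi-likelihood test, adjusted p = 0.0568). The P14 libraries lay below the P1 libraries, but the peak missed the threshold. It passed under limma-voom (adjusted p = 0.0053) and without P14 replicate 3 (edgeR, adjusted p = 0.0414). In Gm40164, chr3:145631971-145633091 had 209, 69 and 49 reads at P14, against 47, 53 and 46 reads at P1, a log2 change of −0.05 (SE 0.25) whose sign turned under 4 alternatives. In the pseudogene Gm12149, chr11:43614093-43614730 had 119, 54 and 38 reads at P14, against 19, 25 and 14 reads at P1.

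Unnamed peaks near heart genes were counted for a list of 40 cardiac genes, covering sarcomere, calcium handling, conduction, transcription factor and growth factor genes. Of these, 38 had an unnamed peak within 100 kb, 217 distinct peaks in all. Nkx2-5, a cardiac homeobox factor, and Erbb4, a neuregulin receptor, had none. Cacna1c had 33, Tbx5, a T-box factor of heart and forelimb, had 19, and Tead1, the DNA-binding partner of YAP, had 17. Among the 200 tested, 0 were higher and 8 lower at P14, and the median log2 change was 0.01. The 8 are 4.0%, beside 3.05% lower among all unnamed peaks tested and 2.36% among all peaks. Whether such peaks gather near these genes was not tested.

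The 8 stood near 7 genes. Nrg1, the neuregulin ligand that heart lining cells send to heart muscle, had 2 inside its span. The first, chr8:32042172-32043057, had 14, 9 and 13 reads at P14, against 46, 18 and 17 reads at P1, a log2 change of −2.21 (SE 0.48, adjusted p = 0.0269, edgeR's quasi-likelihood test). The second, chr8:32460110-32460787, had 5, 10 and 7 reads at P14, against 16, 13 and 25 reads at P1, a log2 change of −2.24 (SE 0.54). Raw reads did not overlap between the ages at either, although P1 replicate 1 was far above the others at the first. A peak 2089 bp outside Cacna1c, chr6:118584379-118585151, had 5, 12 and 9 reads at P14, against 37, 17 and 16 reads at P1, a log2 change of −2.39 (SE 0.54). Bmp10, a growth factor of the embryonic ventricle, had 2 such peaks at 35768 and 85620 bp, both nearer to other genes, Gkn3 and Gkn1. At the nearer, 22, 23 and 24 reads at P14 stood against 57, 22 and 34 reads at P1, so raw reads overlapped. The others were single peaks near Tead1 (50286 bp away), Zfpm2, a partner of GATA factors (28199 bp), and between Tbx5 and Tbx3 (37584 and 73528 bp). The Tbx5 and Tbx3 peak, chr5:119758252-119758930, had 12, 16 and 7 reads at P14, against 30, 14 and 18 reads at P1. The adjusted p of these 8 without P14 replicate 1 ran from 0.210 to 0.364.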

How the data were processed

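The 6 libraries were made from sonicated genomic DNA with a MethylMiner capture and sequenced for 36 cycles on a Genome Analyzer IIx, per the labels' protocols. Values are raw counts of reads in a region, deposited as whole numbers. Tools named by the submitters' processing notes are bedtools, BWA, MACS and edgeR 3.2.4, and the build is GRCm38 (mm10). For settings, duplicate handling and pooling, the record is: not given in the sources used here. Of 221524 lines, 7567 list a region again under another gene and were dropped.

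Read density is reads per kb per 1e6 reads of the library. Differences were tested with edgeR 4.0.16 (TMM, filterByExpr over all regions, quasi-likelihood F test, Benjamini-Hochberg over all regions tested) in R 4.3.3, over all regions and over peaks alone. Alternatives used DESeq2 1.42.0 and limma 3.58.1, and the scripts were tested on simulated data. Standard errors of log2 changes are the absolute change over the square root of F. Exact permutation tests compared single values between the libraries of each age. Nothing says that the libraries came from separate animals, so p-values measure the spread between these libraries, and counts carry counting error besides. Coordinates count from 1, the table's start plus 1. RefSeq GRCm38.p6 gave gene spans, promoter windows and microRNAs, with no genome sequence. Narrow unnamed regions on X and Y (96) were left out, and chromosome 18 regions were counted but not named. Unnamed peaks are named where they had the 6 smallest p in each direction without overlap between ages, the 5 highest densities, the 5 highest inside a gene span, widths at the limit, the fullest 1 Mb window, or a called difference within 100 kb of a gene on the cardiac list. Promoter and microRNA members are named by what they hold and were chosen after their values were seen. The replicate numbers did not pair the libraries. The members and lists were chosen with earlier results of these data known.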

Additional observations from a re-analysis of the deposited data

How the results depend on the processing

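The lower density of unnamed than of gene-named narrow regions kept its direction under every alternative run. Leaving out libraries could not change it, since the ratio was negative in 6 of 6 libraries. Density by place, where the order did not hold throughout, was not among these alternatives. For peaks, total reads over total length gave −0.089 in place of −0.18 and missed the threshold, and leaving out 1 library gave −0.19 to −0.15, where 5 libraries allow no exact p below 0.0625. The change of that ratio with age was −0.03 for peaks, ran from −0.071 to 0.018 with 1 library left out, was 0.0027 without both replicates 1 and −0.15 with total reads over total length, which for all members gave −0.25 in place of −0.09. In the fit over all regions, 0 members were called in either direction, 0 to 24 higher and 0 to 8 lower with 1 library left out, 396 higher and 76 lower without both replicates 1, and 1 lower by DESeq2. In the fit over peaks alone, 8 higher and 902 lower unnamed peaks were 0 to 2 and 0 to 498 with 1 library left out, 1 and 41 without both replicates 1, 1 and 1709 by limma-voom (with 0 of the 8 still called), 2 and 1269 by DESeq2, and 1287 and 19 when scaled to the reads between peaks. The cause was not tested. With the replicate number as a block, 0 were higher and 0 lower. Libraries of the same number had correlations of −0.05, −0.04 and 0.02 in their deviations, so they share only a number. The 12 peaks named for the smallest p kept their sign under all alternatives. They were chosen without overlap between the ages in these libraries, so fits with libraries left out could hardly change it. The Gm40164 peak (−0.05) had 0.089 without P14 replicate 2, 0.068 without replicate 3, 0.024 with peaks told by density alone and 1.25 scaled to the reads between peaks, and the 2000 bp peak on chromosome 11 had 0.96 in place of −0.22 under that scaling. The gap to flank difference, chosen for this after the data were seen, ran from −0.268 to −0.189 with 1 library left out. Thin peaks limit the depth, with a median of 11.0 to 38.0 reads per library in unnamed peaks.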
